A study of Mus musculus with 16 samples.

Results

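Mature migratory dendritic cells were picked out of the CD45+ cells of MC38 tumors by the raw counts of their own transcripts. A barcode was taken when it held at least 2 UMIs (unique molecular identifiers, each standing for 1 captured transcript) of Ccr7, at least 1 of Fscn1 and at least 5 of Cst3. It also had to hold 0 UMIs of the T cell genes Cd3e, Cd3d and Cd3g together, and at most 2 of the macrophage genes C1qa, C1qb and C1qc together. This gate took 172 of the 9083 barcodes in the 4 tumor CD45+ libraries, out of 37609 barcodes in all 16 libraries of the series.

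The study placed MC38, a colon tumor line of C57BL/6 origin, under the skin of mice with and without Aire and treated them with an antibody against PD1 or with an isotype control. All mice were of the C57BL/6 background and 8 weeks old, the antibodies were dosed at 5 mg/kg, and tissues were taken on day 19. The 4 groups used here were Aire+/+ mice given isotype, Aire+/+ mice given anti-PD1, Aire-/- mice given isotype and Aire-/- mice given anti-PD1, and values in the 4 libraries are listed in that order throughout. Each group was 1 library made from 4 to 6 pooled tumors, so no difference between groups has a replicate check, and differences between the mice of a pool and between groups cannot be told apart.

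Dendritic cells take up antigen in a tissue, and on a maturation signal they stop uptake, display what they hold and move to the draining lymph node. The receptor encoded by Ccr7 guides them along a gradient of lymphatic chemokines, and the actin bundler encoded by Fscn1 shapes the long processes of the moving cell. Mature cells raise costimulatory ligands and cytokines that activate T cells, and also ligands and enzymes that restrain T cells, much of it under the transcription factor NF-kB.

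The libraries held 38961020, 28780160, 24658741 and 23286592 UMIs, of which the gated cells gave 493640, 421491, 564323 and 671943. Median UMIs per gated cell were 10064, 12098, 13407 and 12920, and single gated cells ranged from 3706 to 29686. The median mitochondrial share of their UMIs was 1.33%, 1.41%, 1.51% and 1.41%. Between 3 and 14 barcodes recurred in any pair of the 4 libraries, and 0 barcodes were gated in both libraries of a pair.

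The Aire-/- anti-PD1 library stood apart in its make-up. Barcodes with at least 10 C1q UMIs and no Cd3 UMI, taken as macrophages, were 37.9%, 33.5%, 27.7% and 8.91% of the libraries. T cells, taken as barcodes with at least 3 Cd3 UMIs, numbered 393, 392, 366 and 956. Aire itself gave 0, 2, 1 and 0 UMIs, and libraries of Aire-/- mice elsewhere in the series also held UMIs of the gene, so this count checks no label.

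Expression is given below as CPM, the UMIs of a gene per 1000000 UMIs summed over the gated cells of a library. Brackets hold exact 95% intervals (Poisson for a level, Clopper-Pearson for a share, conditional exact for a ratio), which cover counting error only. Ccr7 was at 5212, 5796, 6636 and 6809 CPM and Fscn1 at 5998, 7284, 5747 and 5895 CPM in the gated cells, levels that the gate itself secured.

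The 3 markers that the gate did not read bear on the name of the cells. Ccl22, a chemokine for regulatory and activated T cells, was at 1070, 1504, 519 and 783 CPM in the gated cells. In T cells of the same libraries it was at 7.60, 0, 0 and 1.33 CPM. Cacnb3, a calcium channel subunit, was at 814, 655, 741 and 777 CPM in the gated cells. Il4i1, a secreted enzyme that breaks down aromatic amino acids, was at 233, 268, 315 and 394 CPM. All 3 markers were present in all 4 libraries, so the name holds for the gated cells as a group.

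Those markers were also common from cell to cell. After every cell was thinned to 5000 UMIs, Cacnb3 was found in 89.7% (84.0 to 93.9) of 165 gated cells and in 2.15% (1.54 to 2.93) of 1811 T cells. Ccl22 was found in 69.1% (61.4 to 76.0) of the gated cells and 0.166% of T cells, and Il4i1 in 58.8% (50.9 to 66.4) and 0.221%. Without thinning, the gated shares were 94.8%, 80.2% and 76.2% and the T cell shares 3.37%, 0.190% and 0.475%, at median depths of 12014 and 8668 UMIs. Thinning left out 4, 1, 2 and 0 gated cells and 61, 51, 32 and 152 T cells of the 4 libraries for being shallower.

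Few barcodes lay close to the limits of the gate for Ccr7, Cst3 and Cd3, and more lay close to those for Fscn1 and C1q. The 4 gated cells with 2 UMIs of Ccr7 held 179 CPM of Ccl22 and 1076 CPM of Cacnb3, and 4 barcodes that failed only by having 1 UMI of Ccr7 held 312 and 332 CPM. The 4 gated cells with 1 UMI of Fscn1 held 19.7 CPM of Ccl22, 78.9 CPM of Cacnb3 and 0 UMIs of Il4i1. Another 75 barcodes met every condition but had 0 UMIs of Fscn1, and their Ccl22, Cacnb3 and Il4i1 levels of 186, 58.6 and 98.4 CPM lay under the 921, 752 and 312 CPM of all gated cells. For Cst3, 1 gated cell had 5 to 9 UMIs and 1 barcode outside had 1 to 4. The Cd3 condition alone removed 6 barcodes with 1 UMI and 1 with more, while the C1q condition kept 21 cells with 1 or 2 UMIs and removed 5 with more.

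Gated cells made up 1.63% (1.21 to 2.16), 1.54% (1.07 to 2.14), 2.26% (1.63 to 3.04) and 2.31% (1.71 to 3.05) of the barcodes, from 48 of 2936, 34 of 2211, 42 of 1860 and 48 of 2076. Both Aire-/- libraries lay above both Aire+/+ libraries, and all 4 intervals overlapped. Under anti-PD1 the share in Aire-/- over that in Aire+/+ was 1.50 (0.949 to 2.41), and under isotype 1.38 (0.891 to 2.13). Anti-PD1 over isotype was 0.941 (0.588 to 1.49) in Aire+/+ and 1.02 (0.663 to 1.59) in Aire-/- tumors. All 4 ratios have intervals that include 1, so no difference in share was detectable at this depth.

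The denominator matters to those ratios, because T cells filled more and macrophages less of the Aire-/- anti-PD1 library. With barcodes that hold any Cd3 UMI left out of the denominator, the ratio of Aire-/- to Aire+/+ under anti-PD1 was 2.44 (1.54 to 3.90), from 48 of 1034 and 34 of 1786. Anti-PD1 over isotype in Aire-/- tumors became 1.60 (1.03 to 2.48). With barcodes that hold C1q UMIs left out instead, the same 2 ratios were 1.05 (0.666 to 1.69) and 0.781 (0.505 to 1.21). The first ratio was thus above 1 with all 3 denominators, and the second lay on either side of 1. Among dendritic barcodes alone, counted as the gated cells together with the type 1 and type 2 cells described next, gated cells were 53.9% (43.0 to 64.6) and 48.6% (36.4 to 60.8) in Aire+/+ tumors. They were 47.2% (36.5 to 58.1) and 49.5% (39.2 to 59.8) in Aire-/- tumors, so this share was near 50% in each library and the intervals overlapped.

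**Figure D1:**
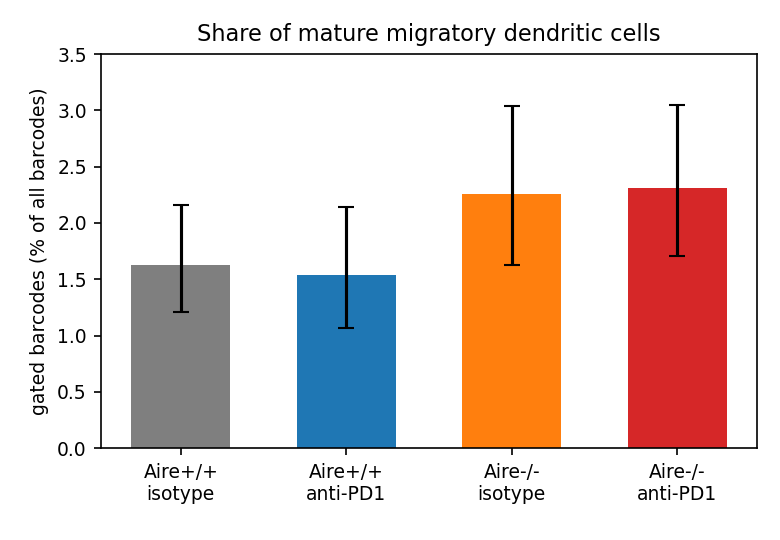
Share of gated mature migratory dendritic cells among all barcodes of each tumor CD45+ library, in percent, 1 bar per library with its exact 95% interval. The shares run from 1.54% to 2.31%, and all 4 intervals overlap.

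To place the gated cells among their neighbors, dendritic cells without Ccr7 UMIs were taken from the same libraries. Type 1 cells, specialized in presenting engulfed material on MHC class I, had at least 2 UMIs of Clec9a and Xcr1 together and numbered 69. Type 2 cells, which mainly serve CD4+ T cells, had at least 2 UMIs of Cd209a and none of Clec9a or Xcr1, and numbered 104. Median depths were 12014 UMIs for the gated, 16584 for the type 1 and 14352 for the type 2 cells. Since the gates read the same counts, the differences among these populations are a description and nothing is inferred from them.

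Of 6859 genes with at least 50 UMIs over the populations, 149 (2.17%) were at least 4-fold higher in the gated cells than in both other dendritic populations in all 4 libraries, and 102 (1.49%) were at least 4-fold lower. The maturation and migration list held 23 of the higher genes among its 35 measured members and 0 of the lower. Ccr7 and Fscn1 are among the 23, and the gate itself secured their place there. With every cell thinned to 5000 UMIs the count of higher genes was 73 of 3920, of which 69 were among the 149.

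The 15 genes chosen by the largest minimum ratio over both other dendritic populations are described by their own levels, and 2 of them, Fscn1 and Ccr7, were read by the gate. Cd63, a tetraspanin of late endosomes, was at 1490 CPM (1439 to 1542) in gated cells over all 4 libraries and 0.763 in type 1 cells, with 23.9, 14.7, 28.1 and 12.6 CPM in type 2 cells of the 4 libraries. Tbc1d4, a regulator of Rab proteins in vesicle transport, was at 1809 CPM (1753 to 1867) against 30.5 in type 1 and 20.7 in type 2 cells. Mreg, which takes part in organelle transport, was at 550 CPM (519 to 583) with 0 UMIs in both other populations. Serpinb9, an inhibitor of granzyme B that shields a cell from cytotoxic granules, was at 1265 CPM (1218 to 1314) against 29.0 and 11.0. T cells held 265 CPM of Serpinb9, so this gene also marks lymphocytes. Also among these 15 genes were Fscn1, Ccr7, Cacnb3, Ccl22, Cd200, Socs2, Il12b, Zmynd15, Bcl2l14, Pdlim4 and Insl6.

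**Figure D2:**
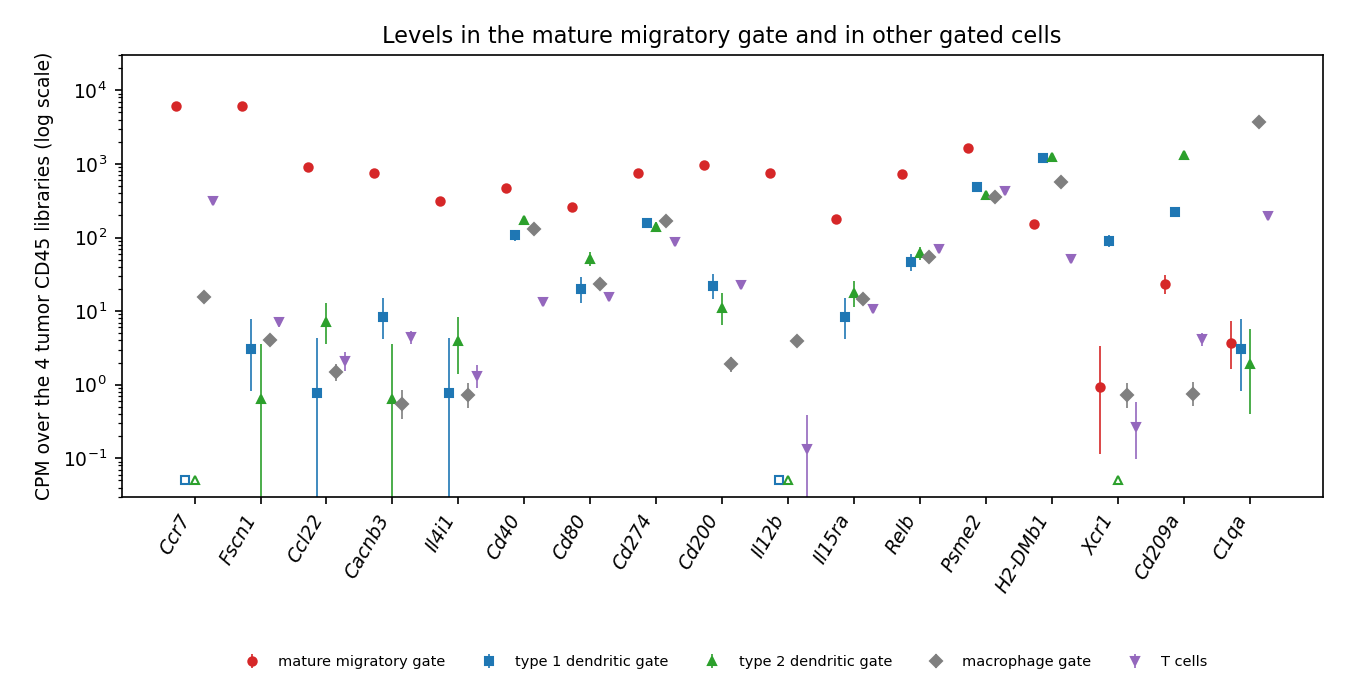
Level of marker and effector genes in CPM on a log axis, in gated, type 1, type 2, macrophage and T cells, each summed over the 4 tumor CD45+ libraries with its exact Poisson 95% interval. Open symbols stand for 0 UMIs and are drawn below the range of the values, and Cacnb3, Ccl22 and Il4i1 lie highest in the gated cells.

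NF-kB genes were high in the gated cells and similar across the libraries. The 25 genes of the list, subunits, inhibitors and survival targets of NF-kB, summed to 13933, 13319, 13599 and 13753 CPM in the gated cells, and over all libraries to 2861 CPM in type 1 and 4277 CPM in type 2 cells. Relb, the subunit of the alternative NF-kB pathway, was at 707, 614, 769 and 798 CPM. Nfkb2, its partner, was at 395, 356, 466 and 451 CPM. Of the 25 measured genes, 7 were at least 4-fold higher than in both other dendritic populations, against 2.17% of all genes. They were Relb, Nfkb2, Traf1, Birc2 and the survival genes Bcl2a1a, Bcl2a1b and Bcl2a1d. The Bcl2a1 genes are near-identical copies whose reads may be assigned among them with some uncertainty.

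Chemokines differed in kind from those of the other dendritic cells. Ccl5, which attracts T and NK cells, was at 8265, 6918, 5518 and 6053 CPM in gated cells and, over all libraries, 64.8 CPM in type 1 and 126 CPM in type 2 cells. T cells of the same libraries held 937, 1919, 1542 and 3725 CPM of Ccl5, and what their RNA contributed to the gated levels was not tested. Cxcl16, a membrane-bound ligand of Cxcr6 on effector T cells, was at 1497, 1537, 1526 and 1467 CPM. Ccl22, Ccl5 and Cxcl16 were the 3 of 15 measured chemokines at least 4-fold higher than in both other populations, and Ccl6 was at least 4-fold lower. Of all genes, 2.17% were higher and 1.49% lower by this rule. In contrast, Cxcl10, which calls in Cxcr3+ T cells, was at 292 CPM (270 to 316) in gated, 737 in type 1 and 3029 in type 2 cells.

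Among cytokines, Il12b, Il15ra and Il2ra were at least 4-fold higher, of 17 measured, against 2.17% of all genes. Il12b, the shared subunit of IL-12 and IL-23, had 0 UMIs in type 1 and type 2 cells of all 4 libraries. Thinned to 5000 UMIs, 35.8% (28.5 to 43.6) of gated and 0.110% of T cells held it, against 42.4% and 0.142% unthinned. Il15ra, which presents IL-15 to neighboring lymphocytes, was at 170, 185, 159 and 189 CPM in gated cells. Il10, Il12a and Ifnb1 had 0 UMIs in the gated cells, which allows up to 7.47, 8.75, 6.54 and 5.49 CPM in the 4 libraries by the upper end of the interval.

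Ligands of both kinds, for and against T cell activation, were present on the same population. Cd40, through which helper T cells signal, was at 450, 477, 491 and 445 CPM, and over all libraries at 464 CPM against 107 in type 1 and 173 in type 2 cells. Cd80, a ligand of Cd28 and Ctla4, was at 278, 304, 236 and 235 CPM. Cd274, which encodes PD-L1, was at 713, 643, 702 and 883 CPM. In the inhibitory list 5 of 17 measured genes were at least 4-fold higher than in both other populations, against 2.17% of all genes. They were Cd200, Il4i1, Pdcd1, Pdcd1lg2 and Socs2. Lgals9, which encodes galectin-9, was at least 4-fold lower, against 1.49% of all genes. Pdcd1lg2, which encodes PD-L2, was at 265, 187, 346 and 320 CPM. Cd200, whose receptor quiets myeloid cells, was at 845, 1115, 849 and 1094 CPM, and Socs2, a brake on cytokine receptors, at 780, 652, 742 and 652 CPM.

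Costimulatory receptors of the TNF family need a comparison with T cells. Tnfrsf9 and Tnfrsf4 were the 2 of 10 measured costimulation genes at least 4-fold higher than in both other dendritic populations, against 2.17% of all genes. Over all libraries Tnfrsf9 was at 628 CPM in gated and 1213 CPM in T cells, and Tnfrsf4 at 227 and 783 CPM. Pdcd1, at 59.0 CPM in gated and 453 CPM in T cells, and Il2ra, at 170 and 262 CPM, were likewise higher in T cells. What RNA from T cells contributed to these 4 levels was not tested.

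Antigen presentation genes of the 2 MHC classes were summed apart. The MHC class II list, led by Cd74, summed to 25551, 31545, 31264 and 28233 CPM in gated cells, and over all libraries to 29062 CPM against 53950 in type 1 and 53016 in type 2 cells. H2-DMb1, a chain of the DM complex that loads peptide on class II, was at 97.2, 228, 113 and 182 CPM in the gated cells and was at least 4-fold lower than in both other populations, as was March1, a ligase that removes class II from the surface. The MHC class I list, led by B2m, summed to 21799, 24250, 24132 and 24005 CPM, and over all libraries to 23580 CPM against 11687 in type 1 and 10222 in type 2 cells, while 0 of 17 measured class I genes were 4-fold higher or lower than in both. Antigen uptake genes summed to 3133 CPM, with 5009 CPM in type 1 and 13183 CPM in type 2 cells, where Lyz2 gave 4827 CPM. Of 19 measured, the lysosomal genes Cd68, Ctsl and Lyz2 were at least 4-fold lower, against 1.49% of all genes. The monocyte list summed to 5092 CPM in type 2 cells, 3894 in type 1 cells and 4205 in macrophages. Whether the type 2 gate also took monocytes was not tested.

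Dendritic identity and lineage genes were read next. Of 16 measured identity genes, Traf1 was at least 4-fold higher than in both other populations and Itgax, the integrin CD11c, was at least 4-fold lower. The type 1 lineage list summed to 3162 CPM against 6420 in type 1 cells, with 1 of 18 genes at 0, and the type 2 list to 806 CPM against 3781 in type 2 cells, also with 1 of 18 at 0. Of 15 measured genes in each list, 1 and 2 were at least 4-fold lower than in both other populations, and Cd1d1 of the type 2 list was at least 4-fold higher, against 1.49% and 2.17% of all genes. Flt3, the receptor for the growth factor of dendritic cells, was at 239, 304, 264 and 277 CPM and Zbtb46, a factor of the conventional lineage, at 128, 92.5, 79.7 and 107 CPM. Irf8, needed for the type 1 lineage, was at 1736, 1841, 1802 and 1790 CPM, and over all libraries at 1791 CPM against 1588 in type 1 and 323 in type 2 cells. Xcr1 and Clec9a, by contrast, were at 0.930 and 16.3 CPM in the gated cells, and 90.7 and 230 CPM in type 1 cells. Of the 172 gated cells, 127 held no UMI of the genes taken as specific to a lineage, 9 held only type 1 genes, 28 held only type 2 genes and 8 held both. The genes taken leave out Irf8 and Sirpa, which were found in 169 and 56 of the gated cells, so these counts depend on that choice. Ccr2, a receptor of cells newly arrived from blood, was at 6.04 CPM against 141 and 376 CPM.

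Markers of other cell types were counted over whole lists. The T cell list summed to 38.5, 19.0, 15.9 and 72.9 CPM, was led by Cd8a, and had 6 of 11 genes at 0, including Cd3d, Cd3e and Cd3g by the gate. The NK list summed to 85.1, 123, 78.0 and 534 CPM and was led by Klrd1, with all 10 genes present. The monocyte list summed to 326, 1457, 1014 and 758 CPM and was led by Plac8, with all 10 genes present. Macrophage markers summed to 38.5, 126, 379 and 69.9 CPM, led by Lyz2 with all 14 genes present, and B cell markers to 6.08, 2.37, 72.7 and 11.9 CPM, led by Cd79a with Pax5 at 0. Neutrophil and tumor cell lists were at 0.930 and 4.65 CPM over all libraries, led by S100a8 and Sparc, with 8 of 10 and 4 of 10 genes at 0. Plasmacytoid markers summed to 476, 569, 604 and 707 CPM and were led by Bst2, which interferon also induces, with Klk1 at 0.

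Part of these foreign signals sat in single barcodes. In the Aire-/- isotype library, 1 gated cell of 18400 UMIs held the most UMIs of Lyz2, Ccl2, Thbs1 and Cxcl2, genes of monocytes and macrophages, beside 19 UMIs of Ccr7 and 24 of Fscn1. In the Aire+/+ anti-PD1 library, 1 cell of 18500 UMIs led Ly6c2, Tgfbi, Cxcl10 and Ifit3, and 1 cell of 13503 UMIs led Lyz2, Cd209a and Ccl4. Those 2 cells had 1 UMI of Fscn1 each and none of Ccl22, Il4i1 or Cacnb3, so they met the gate without the other markers. In the Aire-/- anti-PD1 library, 1 cell of 19223 UMIs with 46 UMIs of Ccr7 and 74 of Fscn1 led Gzma, Gzmb, Nkg7 and Ccl4. Such barcodes may be doublets of 2 cells, and they were kept. Gated cells with markers of B cells, NK cells or neutrophils numbered 1, 0, 1 and 2, and without them the log2 ratio of Ccl4 between genotypes under anti-PD1 was -7.16 in place of -4.52. Doublets with monocytes or macrophages were not tested beyond the C1q limit. For genes given a fold below, the share of 1 cell is stated where it was 50% or more in the higher library.

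Whether loss of Aire goes with a different state of these cells under PD1 blockade was asked by comparing the 2 anti-PD1 libraries. Of 2680 genes with at least 50 UMIs over the pair, 77 (2.87%) were at least 2-fold higher in Aire-/- and 38 (1.42%) at least 2-fold lower, 4.29% together. The clearest group was the interferon response list, in which 13 of 41 measured genes were at least 2-fold higher and 3 were lower. Its median log2 ratio was 0.56, against 0.06 over all genes tested, and 33 of the 41 ratios were above 0. The list summed to 12187, 10911, 17449 and 15702 CPM, so both Aire-/- libraries lay above both Aire+/+ libraries.

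The higher interferon genes included GTPases that interferon-gamma induces and that attack the vacuoles of intracellular pathogens. Cxcl9, a ligand of Cxcr3 on effector T cells, was at 87.1, 23.7, 255 and 502 CPM, and under anti-PD1 it was 21.1-fold (11.4 to 44.5) higher in Aire-/-. It came from 9, 5, 8 and 15 cells, so the level rests on a minority of the gated cells in every library. Ifitm1, a membrane protein that hinders viral entry, was at 995, 242, 2328 and 1119 CPM, 4.62-fold (3.76 to 5.74) higher. Its log2 ratio of 2.21 became 1.52 with cells over 2 times the median UMIs left out and 1.74 with cells thinned to 5000 UMIs. Tgtp1, one of the GTPases, was at 66.9, 38.0, 110 and 167 CPM, 4.39-fold (2.59 to 7.95) higher. Tgtp1 and its near-identical copy Tgtp2 share reads that may be assigned to either. Gbp2, a guanylate-binding protein, was at 318, 161, 284 and 400 CPM, 2.48-fold (1.90 to 3.29) higher. Ifi47, another GTPase, was at 128, 83.0, 126 and 213 CPM, 2.56-fold (1.76 to 3.82) higher. For Gbp2 and Ifi47 the Aire+/+ anti-PD1 library was the low one, and the isotype libraries of both genotypes were within 1.12-fold (0.894 to 1.41) and 1.01-fold (0.711 to 1.44) of each other. The remaining 8 were Gbp4, Ifi204, Igtp, Iigp1, Ly6a, Oasl1, Parp14 and Tgtp2.

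The 3 lower interferon genes behaved otherwise. Ifit3, which binds foreign RNA in a complex with its relatives, was at 215, 202, 106 and 55.1 CPM, 3.66-fold (2.46 to 5.54) lower in Aire-/- under anti-PD1. A single cell gave 96.5% of its UMIs in the Aire+/+ anti-PD1 library, and without the largest cell of each library the log2 ratio turned from -1.87 to 2.27. Ifit2 and Mx1 were the others, at 228 and 135 CPM in Aire+/+ and 92.3 and 46.1 CPM in Aire-/- under anti-PD1. The cell that led Ifit3 also gave 83.3% of the Aire+/+ Ifit2 UMIs, and without the largest cells the log2 ratio of Ifit2 turned from -1.30 to 0.88.

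Interferon genes were also higher in Aire-/- in some populations outside the gated cells. The list summed to 22493, 22993, 32124 and 29811 CPM in macrophages, 14924, 21201, 25998 and 29515 CPM in type 1 cells, and 14749, 12839, 16427 and 14069 CPM in T cells. In type 2 cells it summed to 28928, 29047, 41828 and 30092 CPM, with little between the genotypes under anti-PD1. Ifitm1 in all other barcodes was at 843, 814, 1571 and 1547 CPM, and Cxcl9 at 144, 226, 438 and 322 CPM. How far RNA released by other cells enters the gated levels was not tested. The count of higher list genes was 7 of 22 with cells thinned to 5000 UMIs, 4 of 16 among genes with at least 200 UMIs, 24 of 36 with Fscn1 at 3 UMIs or more, and 17 without the largest cell of each gene.

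Cytokine genes under anti-PD1 were led by Il12b. It was at 271 (227 to 321), 285 (236 to 340), 1265 (1174 to 1362) and 954 (882 to 1031) CPM, so both Aire-/- libraries lay above both Aire+/+ libraries. In Aire-/- it was 3.35-fold (2.75 to 4.11) higher under anti-PD1. It was present in 18, 13, 18 and 24 cells, and the largest cell gave 26.1%, 26.7%, 43.1% and 61.3% of its UMIs. Without those cells the log2 ratio under anti-PD1 was 0.82 in place of 1.74, under the 2-fold mark. Of 12 measured cytokine genes, Il12b was higher and 2 were lower, against 2.87% and 1.42% of all genes. The lower ones were Ebi3, a subunit of IL-27 and IL-35, and Il2ra, the alpha chain of the IL-2 receptor. Il2ra was at 168, 273, 156 and 118 CPM and 2.32-fold (1.73 to 3.13) lower, while T cells held 413, 324, 220 and 185 CPM of it.

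Costimulation genes held 2 of the lower genes under anti-PD1. Of 10 measured genes, 2 were at least 2-fold lower and 0 higher, against 1.42% of all genes lower, with a median log2 ratio of -0.52 and 2 ratios above 0. Tnfrsf4, which encodes OX40, was at 276, 318, 207 and 152 CPM, 2.09-fold (1.61 to 2.74) lower, and within 2-fold with C1q at 0 (log2 -0.96). Cd70, the ligand of Cd27 on T cells, was at 36.5, 87.8, 54.9 and 35.7 CPM, 2.46-fold (1.43 to 4.29) lower, and the Aire+/+ anti-PD1 library was the one that stood out. Tnfrsf9, which encodes 4-1BB, and its ligand Tnfsf9 were within 2-fold. Tnfrsf9 was at 861, 887, 432 and 460 CPM and Tnfsf9 at 365, 323, 200 and 170 CPM, both higher in each Aire+/+ than in each Aire-/- library. In T cells Tnfrsf9 was at 1471, 1346, 1138 and 1070 CPM and Tnfrsf4 at 1385, 1132, 647 and 415 CPM, the same order of genotypes, and the part of T cell RNA in the gated levels was not tested.

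Among 9 measured chemokines, Cxcl9 was higher and Ccl4 and Cxcl2 were lower, against 2.87% and 1.42% of all genes. Ccl4, an inflammatory chemokine, was at 10.1, 444, 7.09 and 19.3 CPM, 22.9-fold (13.1 to 43.9) lower in Aire-/- under anti-PD1. One cell gave 50.8% of its UMIs in Aire+/+ and 84.6% in Aire-/-. The 3 gated cells of the Aire+/+ anti-PD1 library with under 3 UMIs of Fscn1 gave 95.7% of its Ccl4 UMIs, and without them the gene had too few UMIs to be compared. For Cxcl2, 1 cell gave 91.1% of the Aire+/+ UMIs, and its log2 ratio was -2.71 with and -0.09 without the largest cells. Ccl22 was at 1504 CPM (1389 to 1626) and 783 CPM (717 to 853), within 2-fold. NF-kB genes had 0 of 25 past 2-fold in either direction, MHC class I genes 0 of 16, MHC class II genes 0 of 9 and inhibitory genes 0 of 11. With 4.29% of all genes past 2-fold, lists of this length are too short for a count of 0 to set them apart. In the maturation list 1 of 33 genes was higher, Apol7c, and 1 was lower, the nonclassical MHC gene H2-M2. A single cell held 91.7% of the H2-M2 UMIs in Aire+/+, and without the largest cells its log2 ratio turned from -1.45 to 1.03.

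The genes of largest ratio under anti-PD1 were of mixed kinds. Serpinb1a, an inhibitor of neutrophil proteases, was at 95.2 CPM in Aire-/- and 2.37 CPM in Aire+/+, from 64 UMIs and 1 UMI, 40.1-fold (6.95 to 1610) higher. Under isotype Serpinb1a was at 37.2 CPM in Aire-/- and 83.1 CPM in Aire+/+, past 2-fold in the other direction. Upp1, an enzyme of uridine breakdown, had 284 CPM in Aire-/- and 0 UMIs in Aire+/+, at least 39.9-fold higher against a floor of 3 counts, and 1 cell gave 75.9% of its UMIs. Clu, a secreted chaperone, was at 71.4 and 7.12 CPM, 10.0-fold (3.23 to 50.4) higher, and Apod, a lipid carrier, at 124 and 14.2 CPM, 8.68-fold (3.82 to 24.3) higher, with 54.2% of the Aire-/- UMIs from 1 cell. Ly6i, a small surface protein of the Ly6 family, was at 89.3 and 14.2 CPM, 6.27-fold (2.72 to 17.8) higher. Fgr, a Src family kinase of myeloid cells, Ears2 and BC002163 were also among the 10 highest.

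Several other genes at the extremes rested on 1 cell. Gzma, a granzyme of killer lymphocytes, was at 188 CPM in Aire-/- and 0 UMIs in Aire+/+, at least 26.3-fold higher, with 99.2% of its UMIs from 1 cell. Cd209a, the lectin DC-SIGN of type 2 dendritic cells, was at 0 UMIs in Aire-/- and 119 CPM in Aire+/+, at least 26.6-fold lower, and 1 cell supplied all 50 UMIs. Ly6c2, a monocyte surface protein, was at 189 and 759 CPM, 4.02-fold (3.26 to 4.97) lower, with 95.9% of the Aire+/+ UMIs from 1 cell, and without the largest cells its log2 ratio turned from -2.01 to 1.27. Tgfbi, Ms4a6d, Ms4a6b, Nupr1 and Rnaset2b were also among the 10 lowest, and without the largest cells all but Ms4a6b (log2 -0.57) were still past 2-fold, with log2 ratios of -1.20, -1.09, -2.61 and -3.07 for Tgfbi, Ms4a6d, Nupr1 and Rnaset2b. Of the 77 higher and 38 lower genes, 4 and 14 drew 50% or more of the UMIs of their higher library from 1 cell.

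BC002163 deserves a separate word because it split the genotypes everywhere. It was at 6.08, 11.9, 99.2 and 75.9 CPM in the gated cells, 16.3-fold (5.31 to 81.6) higher in Aire-/- under isotype and 6.40-fold (2.57 to 20.5) under anti-PD1. In all other barcodes it was at 9.41 to 17.5 CPM in the 8 Aire+/+ libraries and 69.6 to 127 CPM in the 8 Aire-/- libraries of both tissues and sorts. Its near-identical copy Ndufs5, a subunit of mitochondrial complex I, was at 57.0 to 104 CPM in the same barcodes with no split by genotype, and which copy the reads came from is uncertain. Whether the folds of BC002163 stand for expression or for a difference in sequence near the gene between the mice was not tested.

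The comparison of genotypes under isotype asked the same question without PD1 blockade and used the other 2 libraries. Of 2593 genes, 60 (2.31%) were at least 2-fold higher in Aire-/- and 42 (1.62%) lower, 3.93% together. Interferon response genes counted 6 higher and 3 lower of 39 measured, with a median log2 ratio of 0.25 against -0.02 over all genes. The 3 lower genes, Cxcl10, Ifit3 and Ifit3b, were led by the same Aire+/+ cell, which gave 94.1%, 92.5% and 95.1% of their UMIs there. Without the largest cells their log2 ratios turned from -1.51, -1.01 and -2.23 to 1.46, 2.02 and 1.39. Ifitm1 was 2.34-fold (2.11 to 2.60) and Cxcl9 2.93-fold (2.07 to 4.22) higher in Aire-/-, at the levels given above, and Ifi205, Iigp1, Ly6a and Oas1a completed the higher group. One cell gave 59.7% of the Aire-/- UMIs of Cxcl9 here, and without the largest cells its log2 ratio was 0.86, within 2-fold. With Fscn1 at 3 UMIs or more, the log2 ratios under isotype were 0.27 for Cxcl9 and 0.94 for Ifitm1, so both fell within 2-fold. Isg15, a ubiquitin-like modifier that interferon induces, was at 1961, 1983, 3207 and 2508 CPM, within 2-fold in both genotype comparisons.

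Il12b was 4.66-fold (3.87 to 5.65) higher in Aire-/- under isotype, and its log2 ratio was 1.84 without the largest cells, from 2.22. It was the only gene past 2-fold among 12 measured cytokine genes, against 3.93% of all genes. Il1b, an inflammatory cytokine, was at 1586, 1794, 2855 and 2094 CPM and within 2-fold. Il12b was thus past 2-fold in both genotype comparisons, and in the isotype one alone without the largest cells, while 50% or fewer of the gated cells held it in each library.

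Chemokines split under isotype, with 3 of 8 measured genes higher and 3 lower, against 2.31% and 1.62% of all genes. Ccl22 was at 1070 CPM (980 to 1165) in Aire+/+ and 519 CPM (461 to 582) in Aire-/-, 2.06-fold (1.78 to 2.38) lower. When each cell had the same weight, the log2 ratio of Ccl22 was -0.53, within 2-fold. Cxcl10, at 444 and 156 CPM, was 2.84-fold (2.21 to 3.69) lower, but 1 cell gave 94.1% of the Aire+/+ UMIs, and without the largest cells the log2 ratio turned from -1.51 to 1.46. Cxcl11, another Cxcr3 ligand, was at 91.2 and 8.86 CPM, 10.3-fold (4.10 to 33.2) lower, and all 45 of the Aire+/+ UMIs came from 1 cell. Ccl2, Cxcl2 and Cxcl9 were the higher ones. Ccl2, a monocyte attractant, was at 4.05 and 197 CPM, 48.5-fold (13.1 to 406) higher, with 98.2% from 1 cell.

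That same Aire-/- isotype cell supplied most of the other myeloid genes at the top. Lyz2, the lysozyme of macrophages, was at 2.03 and 246 CPM, 122-fold (21.5 to 4837) higher, with 97.8% of the UMIs from the cell. Cxcl2, a neutrophil attractant, was 23.6-fold (9.87 to 73.9) higher from 10.1 and 239 CPM, with 95.6% from it. Thbs1, thrombospondin, was 20.4-fold (6.70 to 101) higher from 6.08 and 124 CPM, with 97.1% from it. Without the largest cells, the log2 ratio was 0.81 for Ccl2 and for Cxcl2. All Aire+/+ UMIs of Lyz2 and of Thbs1 came from 1 cell. Their values without it, -0.19 and -0.78, thus rest on the floor of 3 counts and give no direction. Of the 60 higher genes, 13 drew 50% or more of their UMIs in Aire-/- from 1 cell.

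Upp1 was at 10.1 and 144 CPM under isotype, 14.2-fold (5.83 to 44.8) higher in Aire-/-, with 72.8% from 1 cell and a log2 ratio of 2.27 without the largest cells. Ceacam15, an adhesion protein of the Ceacam family, was at 172 CPM in Aire+/+ and 21.3 CPM in Aire-/-, 8.10-fold (4.40 to 16.3) lower, with 62.4% of the Aire+/+ UMIs from 1 cell and a log2 ratio of -3.02 with and -2.39 without the largest cells. Jun and Egr1, immediate early genes that tissue dissociation also induces, were lower among 13 measured stress genes, and Jun, at 737, 731, 323 and 400 CPM, was 2.29-fold (1.91 to 2.75) lower, with a log2 ratio of -0.79 at equal weight per cell. The stress list summed to 8701, 9061, 7776 and 8718 CPM. Costimulation genes had 0 of 6 past 2-fold with a median log2 ratio of -0.38, and the NF-kB, MHC class I, MHC class II and inhibitory lists also had 0, of 24, 16, 10 and 11, which does not set them apart from the 3.93% of all genes.

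Set side by side, 2427 genes were measured in both genotype comparisons, which use different libraries. Of these, 14 were at least 2-fold higher in Aire-/- in both, 2 were lower in both and 7 went opposite ways. The 14 were Adam19, Apol7c, BC002163, Cxcl9, Dbn1, Ears2, Fgr, Ifitm1, Iigp1, Il12b, Ly6a, Pola2, Rrad and Upp1, and the 2 were Ifit3 and Rnaset2b. Single cells gave 92.5% and 96.5% of the Ifit3 UMIs in the Aire+/+ libraries. The paper also lists Rnaset2b as lower in Aire-/- under anti-PD1 in tumor CD8+ T cells and NK cells. Its difference is thus not particular to the gated cells, and whether it stands for expression or for sequence was not tested. Some of these names were chosen after their values were seen. The 7 were Cxcl2, H2-M2, Hist1h1c, Ly6c2, Serpinb1a, Tgfbi and Trim27, and their opposite differences were not tested.

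**Figure D3:**
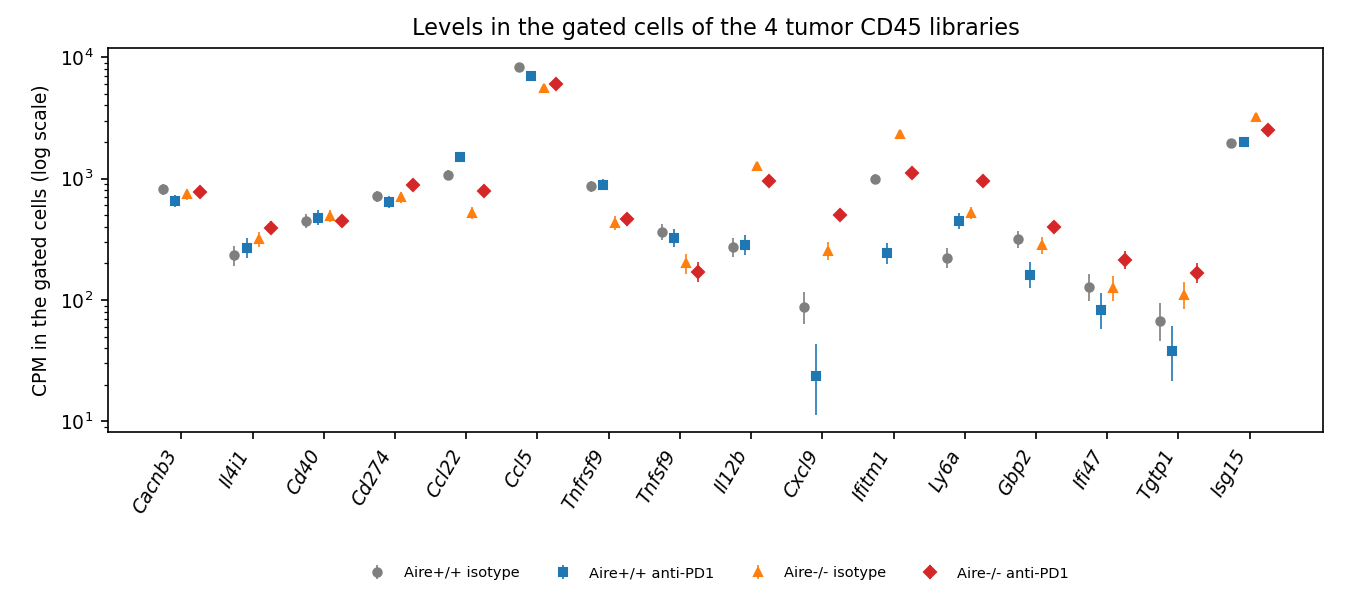
Level in CPM of selected genes in the gated cells of each tumor CD45+ library, with exact Poisson 95% intervals. Il12b lies at 271 and 285 CPM in the Aire+/+ libraries and at 1265 and 954 CPM in the Aire-/- libraries, while Cd40 lies between 445 and 491 CPM in all 4.

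Anti-PD1 and isotype in Aire+/+ mice were compared between the 2 libraries of that genotype, each of which also serves a comparison above. Of 2311 genes, 42 (1.82%) were at least 2-fold higher under anti-PD1 and 36 (1.56%) lower, 3.38% together. Interferon response genes leaned to lower values, with 1 higher and 5 lower of 35 measured and a median log2 ratio of -0.23 against -0.06 over all genes. Ifitm1 was 4.11-fold (3.31 to 5.14) lower and Cxcl9 3.67-fold (1.82 to 8.19) lower, and Ifit3b, Oasl1 and Parp14 were the other 3. Ly6a, at 223 and 448 CPM, was the higher one, and 1 cell gave 85.5% of its isotype UMIs. With Fscn1 at 3 UMIs or more the list had 0 higher and 16 lower of 31, and with C1q at 0 it had 8 higher and 2 lower.

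Of 9 measured MHC class II genes, 2 were at least 2-fold higher under anti-PD1 in Aire+/+ cells, against 1.82% of all genes. H2-DMa, the partner chain of H2-DMb1, was at 70.9, 183, 106 and 146 CPM, 2.58-fold (1.71 to 3.96) higher. H2-DMb1 was 2.34-fold (1.64 to 3.39) higher, at the levels given above. Of the 9 class II ratios, 8 were above 1. With Fscn1 at 3 UMIs or more the log2 ratios were 0.68 for H2-DMa and 0.19 for H2-DMb1, in place of 1.37 and 1.23, both within 2-fold, and in the Aire+/+ anti-PD1 library 3 cells with under 3 UMIs of Fscn1 gave 55.2% of the H2-DMb1 UMIs. In type 1 cells H2-DMa was at 874 and 574 CPM under isotype and anti-PD1, so the direction there was the other one.

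Among 9 measured chemokines, Ccl4, Ccl17 and Cxcl2 were higher and Cxcl9 was lower, against 1.82% and 1.56% of all genes. Ccl17, like Ccl22 a ligand of Ccr4, was at 44.6, 126, 7.09 and 96.7 CPM, and in Aire+/+ it was 2.82-fold (1.69 to 4.87) higher under anti-PD1. Ccl4 was at 10.1 and 444 CPM, 43.8-fold (18.4 to 136) higher, with 50.8% of the anti-PD1 UMIs from 1 cell and 95.7% from the 3 cells with under 3 UMIs of Fscn1. With Ccr7 at 1 UMI or more in place of 2, the log2 ratio of Ccl4 was 1.45 in place of 5.45. Ccl22 was at 1070 and 1504 CPM, within 2-fold. Cd70 was the 1 costimulation gene of 9 past 2-fold, 2.41-fold (1.34 to 4.49) higher, and Tgfb1, a suppressive cytokine at 60.8, 138, 88.6 and 84.8 CPM, was the 1 inhibitory gene of 11.

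Among the genes of largest ratio in this pair was Ly6c2, of the monocyte list. Ly6c2 was at 28.4 and 759 CPM, 26.8-fold (15.7 to 49.5) higher, with 95.9% of the anti-PD1 UMIs from 1 cell. Cd209a was at least 19.5-fold higher, with 0 UMIs under isotype and 119 CPM in 1 cell under anti-PD1. Cxcl2, at 10.1 and 107 CPM, was 10.5-fold (4.20 to 34.0) higher with 91.1% from 1 cell and a log2 ratio of 0.64 without the largest cells, and Tgfbi, a matrix protein of monocytes, at 36.5 and 228 CPM, was 6.25-fold (3.75 to 11.0) higher with 86.5% of the anti-PD1 UMIs from 1 cell. Of the 42 higher genes, 14 drew 50% or more of their anti-PD1 UMIs from 1 cell. At the other end, Ceacam15 was at 172 and 7.12 CPM, a log2 ratio of -4.60 from 85 UMIs, 62.4% of them in 1 cell, and 3 UMIs, and Mt1, a metal-binding protein that stress and zinc induce, at 259 and 54.6 CPM, 4.75-fold (3.03 to 7.76) lower. NF-kB, MHC class I and cytokine lists had 0 genes past 2-fold, of 23, 15 and 12, too few genes to be set apart from the 3.38% of all genes.

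Anti-PD1 in Aire-/- mice was compared in the same way, and its libraries too are shared with the comparisons above. Of 2915 genes, 24 (0.823%) were at least 2-fold higher under anti-PD1 and 39 (1.34%) lower, 2.16% together. Interferon genes had 1 higher, Gbp4, and 1 lower, Ifitm1, of 43 measured, with a median log2 ratio of 0.04 against 0.03 over all genes. Ifitm1 was 2.08-fold (1.90 to 2.28) lower, at 2328 and 1119 CPM, and within 2-fold with Fscn1 at 3 UMIs or more (log2 -0.77). NF-kB, MHC class I, MHC class II, cytokine and inhibitory lists had 0 genes past 2-fold, of 25, 16, 9, 12 and 14, counts that do not set these short lists apart from the 2.16% of all genes.

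Of 8 measured chemokines, Ccl17 was higher and Ccl2 and Cxcl2 were lower, against 0.823% and 1.34% of all genes. Ccl17 was 13.6-fold (5.08 to 51.6) higher, with 73.8% of the anti-PD1 UMIs from 1 cell. Clu was at 3.54 and 71.4 CPM, 20.2-fold (5.28 to 171) higher, and Apod at 8.86 and 124 CPM, 13.9-fold (5.74 to 44.1) higher, with the same 54.2% from 1 cell. Dap, a protein of cell death and autophagy, was at 17.7 and 98.2 CPM, 5.54-fold (2.83 to 12.1) higher, and Ly6i at 21.3 and 89.3 CPM, 4.20-fold (2.24 to 8.58) higher. Gzma was at least 35.3-fold higher, by the same 1 cell as before. In the Aire+/+ isotype library Clu was at 4.05, Apod at 4.05 and Ly6i at 20.3 CPM and Gzma had 0 UMIs, so these 4 genes had their highest level of the 4 libraries in Aire-/- anti-PD1.

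Lower genes in this pair included the myeloid ones of the single Aire-/- isotype cell. Ccl2 was at 197 and 1.49 CPM, 132-fold (23.2 to 5267) lower, a log2 ratio of -7.05. Its 1 UMI under anti-PD1 falls away without the largest cells, so the log2 ratio of 0.33 there rests on the floor of 3 counts. The single isotype cell gave 98.2% of the isotype UMIs of Ccl2, 97.8% of Lyz2, 95.6% of Cxcl2 and 88.6% of Tgfbi. Lyz2 was 55.2-fold (18.5 to 271) lower, Cxcl2 14.6-fold (7.91 to 30.0) lower and Tgfbi 5.95-fold (3.32 to 11.4) lower, with log2 ratios without the largest cells of -0.84, -0.25 and -0.08. Hspa1a, a heat shock protein that tissue handling induces, was at 107, 40.3, 105 and 8.93 CPM, 11.7-fold (5.07 to 33.2) lower in Aire-/- and lower under anti-PD1 in both genotypes. Bcl2l11, which encodes the death-promoting protein Bim, was at 105 and 25.3 CPM, 4.13-fold (2.38 to 7.56) lower.

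Promoters were read for the interferon genes that were higher in Aire-/- under anti-PD1 and for Nfkb2, as a stretch from 250 bases before to 50 after the start, from RefSeq on build GRCm38.p6. Of the 13 higher interferon genes, 8 had a promoter in the table, and 6 of the 8 held the core of the interferon-stimulated response element, TTTCNNTTT or AAANNGAAA on the other strand, namely Gbp2, Ifi47, Igtp, Oasl1, Tgtp1 and Tgtp2. In the whole interferon list it was 30 of 38 genes. Of all 32851 promoters of this length 10.6% held it, and 12.1% of genes. The kB letters GGANTTTCC, or GGAAANTCC on the other strand, were in 1.25% of all promoters and 1.45% of genes. Among NF-kB list genes they were in 4 of 21, namely Nfkb2, Nfkbia, Tnfaip2 and Tnfaip3. Of the 117 genes with a promoter among the 149 above, 2 held the kB letters, Nfkb2 and Stap2. A match is a description of the letters and says nothing of binding. The promoters of 3 interferon genes and of Nfkb2 are shown because their genes carry the interferon and NF-kB results, with the letters of the interferon element, or of the kB site for Nfkb2, in capitals. Tgtp1 also holds the kB letters, at -121 and in lower case here, as do Cxcl10, Gbp5 and Isg15, 4 of the 38 interferon list genes. Gbp2 lies on the plus strand at chr3:142620413-142620712, Igtp on the plus strand at chr11:58199306-58199605, Tgtp1 on the minus strand at chr11:48992197-48992496 and Nfkb2 on the plus strand at chr19:46305445-46305744. The match begins at -59, -33 and -76 from the start for the first 3 and at 12 for Nfkb2.
Gbp2: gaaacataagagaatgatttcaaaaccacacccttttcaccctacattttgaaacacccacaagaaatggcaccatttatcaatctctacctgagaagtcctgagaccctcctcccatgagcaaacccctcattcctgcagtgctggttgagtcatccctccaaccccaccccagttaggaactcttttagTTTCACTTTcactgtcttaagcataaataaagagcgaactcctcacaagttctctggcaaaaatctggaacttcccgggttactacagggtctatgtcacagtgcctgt
Igtp: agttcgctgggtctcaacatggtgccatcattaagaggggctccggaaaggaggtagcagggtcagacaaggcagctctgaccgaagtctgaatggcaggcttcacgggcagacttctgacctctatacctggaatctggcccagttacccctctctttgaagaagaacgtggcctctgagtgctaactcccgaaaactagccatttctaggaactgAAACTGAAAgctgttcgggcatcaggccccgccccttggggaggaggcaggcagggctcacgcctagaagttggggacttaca
Tgtp1: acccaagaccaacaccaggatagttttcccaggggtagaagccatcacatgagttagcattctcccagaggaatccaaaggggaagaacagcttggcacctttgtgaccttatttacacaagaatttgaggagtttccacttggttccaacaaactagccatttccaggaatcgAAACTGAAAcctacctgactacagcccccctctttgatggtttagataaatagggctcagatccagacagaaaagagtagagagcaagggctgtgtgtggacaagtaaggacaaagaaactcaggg
Nfkb2: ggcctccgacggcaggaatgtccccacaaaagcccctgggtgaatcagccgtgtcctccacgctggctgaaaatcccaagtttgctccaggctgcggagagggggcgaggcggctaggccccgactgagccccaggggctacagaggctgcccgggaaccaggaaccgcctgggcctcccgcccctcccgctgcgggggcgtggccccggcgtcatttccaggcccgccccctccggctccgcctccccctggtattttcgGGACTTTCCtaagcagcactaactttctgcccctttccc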

How the data were processed

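The count matrices were used as deposited. The authors counted UMIs per gene and barcode with Cell Ranger from 10X Chromium Single Cell libraries and deposited the filtered barcodes. The build was GRCm38 by the submitters' processing notes. The chemistry was 3' by the sample labels and by the paper's section on single-cell RNA sequencing. Its section on T cell receptor libraries names a 5' kit for RNA libraries too, a difference not settled here. The genome copy used for promoters is GRCm38.p6. Of 25127 gene rows, 26 vector rows were left out. The gate was applied to raw counts with no quality filter, and 0 gated cells had under 200 genes or over 20% mitochondrial UMIs. Counts were summed over gated cells per library and divided by all their UMIs. Pairs of libraries were compared in genes whose UMIs summed to 50 or more across the pair, ratios of 2-fold or more were counted, and 0 UMIs were set to a floor of 3 counts for a ratio given as "at least". With 1 library per group no test was made. Depth was 421491 to 671943 UMIs per library in gated cells, so 3 counts are 7.12 CPM in the shallowest.

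Genes were named by rule: genes of 26 lists of known function with the most UMIs in gated cells or past 2-fold, the 10 genes of largest ratio in each direction of each comparison, the 15 genes of largest minimum ratio over both other dendritic populations, and Aire. The members and lists were chosen with earlier results of these data known. Alternatives tried were other minimum counts for each gate gene, quality and doublet filters, other denominators, thinned cells, equal weight per cell, centered ratios, other minimum UMIs, and leaving out the cell with the most UMIs of each gene. Code was tested on simulated data. Python 3.11.15, numpy 2.4.6, scipy 1.17.1, pandas 2.3.3 and matplotlib 3.10.9 were used, with seed 1 for thinning.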

Additional observations from a re-analysis of the deposited data

Results flagged for a closer look

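Opposite differences between genotypes flagged 6 of 2270 genes, whose log2 ratio of anti-PD1 over isotype was past 2-fold in each genotype with opposite signs. In Aire+/+ and Aire-/- cells the values were 1.08 and -1.07 for Cd81, 3.40 and -3.87 for Cxcl2, -1.56 and 1.44 for Dnah2, 1.15 and -1.38 for Gstt1, 1.64 and -1.25 for H2-M2, and 2.64 and -2.57 for Tgfbi. Without the largest cell of each library, Cd81 was at 1.09 and -1.13 and Gstt1 at 1.16 and -1.71, while Cxcl2 was at 0.64 and -0.25, Tgfbi at 2.34 and -0.08 and Dnah2 at -1.36 and 0.14. H2-M2 was at -1.47 and -1.91, so its signs were no longer opposite. None of these differences between genotypes was tested, since each group is 1 library.

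Cells that met the gate were also found in CD8-sorted libraries, where dendritic cells are not sought. In CD8-sorted tumor cells they numbered 17 in Aire+/+ isotype, 12 in Aire+/+ anti-PD1, 6 in Aire-/- isotype and 2 in Aire-/- anti-PD1. In CD8-sorted spleen cells they numbered 5, 1, 1 and 3 in the same order. The 37 CD8-sorted tumor cells held 368 CPM of Cd8a against 33.9 CPM in the 172 CD45+ gated cells, 690 against 1791 CPM of Irf8, 356 against 921 CPM of Ccl22, 663 against 752 CPM of Cacnb3 and 467 against 312 CPM of Il4i1.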

How the results depend on the processing

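No paired analysis was possible because each group is 1 library. Of 44 alternative share ratios 42 lay within the main interval, and without Cd3 barcodes in the denominator they were 2.44 for genotype under anti-PD1 and 1.60 for anti-PD1 in Aire-/-. Counts of genes past 2-fold (genotype under anti-PD1, genotype under isotype, anti-PD1 in Aire+/+, anti-PD1 in Aire-/-) were 36, 43, 35 and 21 with cells thinned to 5000 UMIs, 433, 388, 338 and 369 with at least 20 UMIs, and 15, 13, 13 and 7 with at least 200 UMIs, where more or fewer genes were tested. The 4-fold count was 73 when thinned, with fewer genes tested.

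Leaving out the largest cell of each gene, an alternative chosen after seeing the data, changed the sign of the log2 ratios listed here, among others. Between genotypes, Ifit2 and H2-M2 under anti-PD1 and Ifit3 and Ifit3b under isotype also turned, at the values given above. For some of the ratios listed here the sign came only from the floor of 3 counts. Genotype under anti-PD1 gave Ly6c2 1.27 and Ifit3 2.27. Gzma had 0 UMIs in Aire+/+, so its value of -2.26 rests on that floor. Genotype under isotype gave Cxcl10 1.46 and Cxcl11 at least 0.22. For Lyz2 and Thbs1, 1 cell held all the Aire+/+ UMIs, so their values of -0.19 and -0.78 rest on the floor. Anti-PD1 in Aire-/- gave Ccl2 0.33, Thbs1 0.33 in place of -4.80 and Gzma -1.84, all again set by the floor. A sign set by the floor gives no direction. Ly6c2, Ifit3 and Cxcl10 turned because 1 cell held most of the UMIs of the higher library. For Cxcl11, 1 cell held all of them, so 0.22 is a bound against the floor and rests on few UMIs. Where an alternative left a gene under its minimum of UMIs, no value was given. Ly6c2 under anti-PD1 was 1.54 with Fscn1 at 3 UMIs or more, a limit that left out cells with 96.9% of its Aire+/+ UMIs. Cxcl10 under isotype was 4.02 with C1q at 0, a limit that left out the cell with 94.1% of its Aire+/+ UMIs.

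Pools of mice, 34 to 48 cells per library and counting error bound every difference, and RNA from other cells was not removed.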
